A study of Mus musculus with 6 samples.

Results

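Transcripts of 10 genes of the enteric nervous system were followed in stomach corpus tissue of mice, 6 neuropeptide precursors or transmitter enzymes (Tac1, Vip, Grp, Gal, Npy and Nos1), the peptide precursor Cartpt, and 3 genes of neurons in general (Snap25, Uchl1 and Elavl4). They were taken by name from a deposited table of 18708 gene rows, and all 10 were found there. They were chosen by their R122C and WT values in this same table, so their own differences are given as a description without a test. Tissue came from 3 mice of genotype RUNX3 R122C, an arginine-to-cysteine substitution in the transcription factor RUNX3, and from 3 wild-type (WT) mice. Both genotypes were on C57BL/6 and 6 months old, with 1 library from the whole corpus of 1 mouse each. The sources used here state neither zygosity nor sex, how the allele was made, or any batch of library preparation.

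The enteric nervous system is a network of neurons and glia that lies within the gut wall, in the submucosa and between the layers of muscle. Its excitatory motor neurons use acetylcholine and the tachykinins encoded by Tac1, and its inhibitory motor neurons use nitric oxide made by Nos1 together with the peptide VIP. In the stomach these neurons, with the vagus nerve, set muscle tone, acid secretion and hormone release. The cell bodies lie outside the glands, so the transcripts measured in corpus tissue come from a small part of the sample. Some genes named here, Snap25 and Uchl1 among them, are also active in endocrine cells.

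Values were the authors' FPKM, fragments scaled by transcript length and library total, and differences between groups are on the log2(FPKM + 1) scale, R122C minus WT. The FPKM sums of the libraries ran from 581276 to 631156 in R122C and from 685694 to 716992 in WT. Sequencing depth is not recorded in the FPKM table, so no counting interval is given for levels under 1 FPKM. Runx3 itself was at 0.24, 0.34 and 0.95 FPKM in R122C 1, 2 and 3 and at 0.34, 0.12 and 0.20 FPKM in WT 1, 2 and 3. An FPKM level does not show a substitution, so it does not check the genotype labels. Of the 11422 genes averaging 1 FPKM or more, 602 were higher and 95 lower in R122C (limma, Benjamini-Hochberg adjusted p under 0.05). That split depended on scaling, with 419 higher and 192 lower after median-of-ratios scaling, 405 and 248 after quantile normalization, and 1260 and 76 after rescaling to a common total. The median difference of all tested genes was 0.10, and it was -0.0028, -0.06 and 0.29 under those scalings. R122C 3 stood apart by squamous genes of the neighbouring forestomach, with Krt5 at 42.9 FPKM and Krt14 at 63.3 FPKM, against 1.70 FPKM or less for either gene in the other 5 libraries. It was also the lowest library for the acid pump genes Atp4a and Atp4b, whose values are given below.

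The stretches just before the transcription starts are shown first, because the genes were all lower in R122C tissue and the mutated protein binds DNA. RefSeq promoter windows (build GRCm38.p6) were found for 8 of the 10 genes, Tac1, Vip, Gal, Npy, Nos1, Cartpt, Uchl1 and Elavl4, with 11 start sites. Both strands of the 250 bases before each start were searched for the RUNX core TGTGGT, for the cAMP response element TGACGTCA, and for its 5-base core TGACG, which overlaps the full element on either strand. The RUNX core was in none of the 11 windows, while 14.0% of 32851 mouse promoter windows hold it. The 11 windows are few, and some of the Elavl4 windows overlap, so absence from all 11 is no test of control by RUNX3. Variants of the letters TGTGGT were not searched. The 5-base core was in 7 of the 11 windows and in 17.8% of all windows. The 7 belong to 5 genes, Tac1, Vip, Nos1, Cartpt and Elavl4. More than 1 of them is an Elavl4 window, so the 7 are not separate cases. The full element was found before Cartpt, and in 1.55% of all windows. These are matches of letters, and no match says only that the letters are not in this window.

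The matches are shown on the strand of the gene with the matched letters in capitals, for comparison of their flanks, for the start listed first of each gene. That start is not always the outer end of the annotated gene. The Nos1 and Cartpt matches, and the Tac1 match 43 bases before its start, lie inside the gene positions given below.
Cartpt, chr13:99900777-99900806, minus strand, the match beginning 112 bases before the start: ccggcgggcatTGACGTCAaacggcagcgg
Vip, chr10:5639127-5639155, plus strand, 79 bases before: ggatcactactgTGACGtctttcggggag
Tac1, chr6:7555006-7555034, plus strand, 43 bases before: gctctacaggctCGTCAcgcctgagataa
Tac1, chr6:7554852-7554880, plus strand, 197 bases before: tccctaaaattgCGTCAtttcgaacacaa
Nos1, chr5:117866697-117866725, plus strand, 130 bases before: aaaccagccatgCGTCAggcttggcttca
Elavl4, chr4:110351952-110351980, minus strand, 57 bases before: cctccgactccaCGTCAagcgccccctag

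The Vip window is given whole, as the element before this gene is a textbook case of transcription induced by cAMP. It covers chr10:5638968-5639217 on the plus strand, directly before the annotated gene, with the 5-base core in capitals.
Vip: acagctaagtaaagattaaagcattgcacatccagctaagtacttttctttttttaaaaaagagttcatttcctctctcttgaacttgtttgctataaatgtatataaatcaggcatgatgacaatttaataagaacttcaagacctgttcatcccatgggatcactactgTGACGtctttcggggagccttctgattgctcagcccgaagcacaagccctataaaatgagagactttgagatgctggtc

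All 10 genes were lower in R122C tissue, and for each of them the highest of the 3 R122C values lay below the lowest of the 3 WT values. The R122C mean was between 10.1% and 39.9% of the WT mean, with a median over the genes of 28.8%. Non-overlap in this direction was seen for 5.64% of the rows of the whole table and 5.19% of tested genes. Since the genes were picked for this contrast, the count of 10 is a property of the choice. Summed over the 10 genes, the level was 22.74, 13.91 and 9.92 FPKM in R122C 1, 2 and 3 and 59.55, 52.94 and 55.2 FPKM in WT 1, 2 and 3. Fewer neurons and less of these RNAs per neuron cannot be told apart in bulk tissue.

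**Figure D1:**
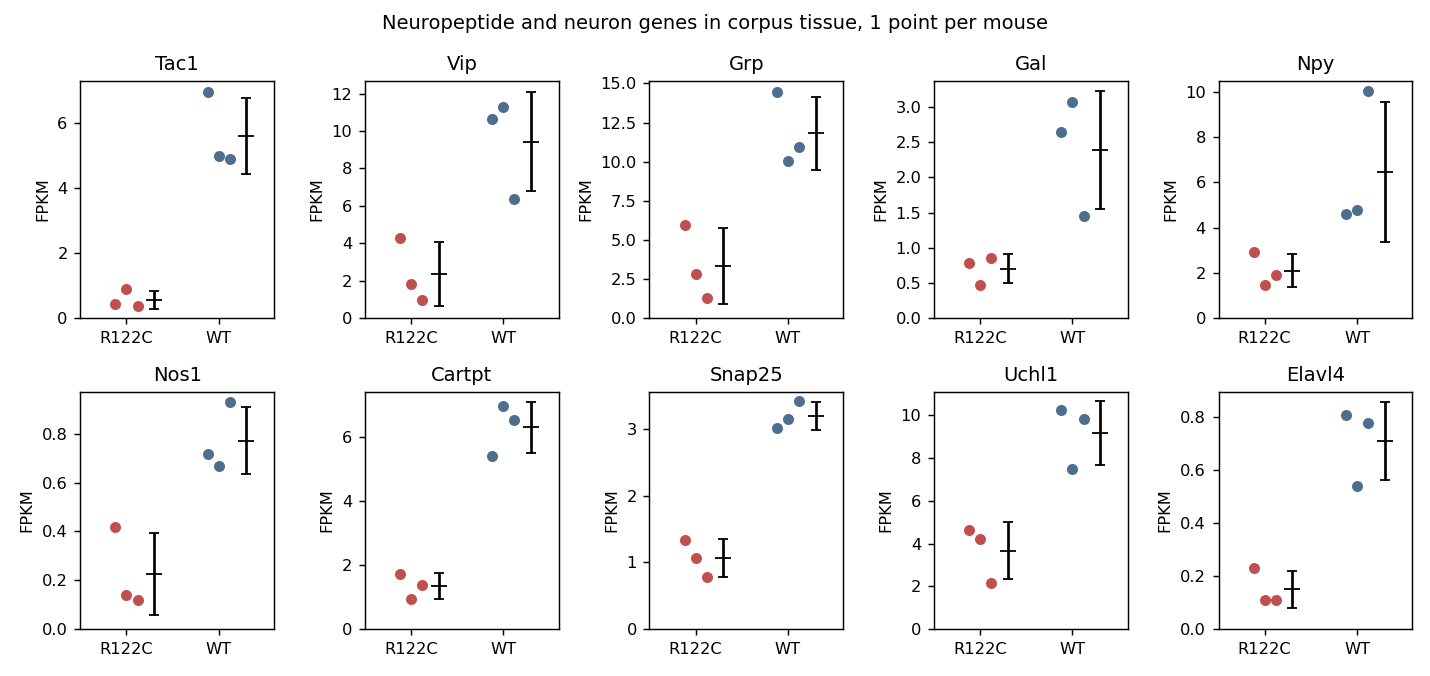
FPKM of the 10 genes in each library, with 1 point per mouse, R122C left and WT right, and the mean with its SD (n = 3) beside the points; axes start at 0 and differ between genes. In every panel the R122C points lie below the WT points, and Tac1 has the smallest R122C mean in proportion to WT, at 10.1% (0.57 FPKM in R122C, 5.62 FPKM in WT).

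Of the transmitters that excite gut muscle, the tachykinins were the most reduced of the 10 genes. Tac1, the precursor of substance P and neurokinin A (chromosome 6, 7554879 to 7565834, plus strand), was at 0.43, 0.89 and 0.38 FPKM in R122C 1, 2 and 3 and at 6.97, 4.99 and 4.89 FPKM in WT 1, 2 and 3. No R122C library reached 1 FPKM, and no WT library was below 4. The means were 0.57 ± 0.28 FPKM in R122C and 5.62 ± 1.17 FPKM in WT (SD, n = 3), a difference of -2.08 ± 0.23 (SE) on the log2 scale. Leaving out each library in turn kept it between -2.22 and -1.94. Its 2 promoter matches to the 5-base core are shown above.

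The inhibitory transmitters Vip and Nos1 were lower together. Vip, whose peptide relaxes gut muscle (chromosome 10, 5639218 to 5647617, plus strand), was at 4.29, 1.81 and 0.97 FPKM in R122C and 10.64, 11.28 and 6.38 FPKM in WT, and its R122C values spread widely, with R122C 3 lowest. The means were 2.36 ± 1.73 FPKM in R122C and 9.43 ± 2.66 FPKM in WT (SD, n = 3), a log2 difference of -1.72 ± 0.37 (SE). Nos1, the neuronal nitric oxide synthase (chromosome 5, 117781032 to 117958840, plus strand), was low, at 0.42, 0.14 and 0.12 FPKM in R122C and 0.72, 0.67 and 0.93 FPKM in WT. With a mean under 1 FPKM it did not enter the test. Its R122C mean was 29.3% of the WT mean, a log2 difference of -0.54 ± 0.12 (SE, from the fit of all rows), a scale on which the pseudocount of 1 understates the change of so low a gene. Exons of Gm26995 overlap those of Nos1 on the opposite strand, and strandedness of the libraries is not given, so reads of the pair cannot be told apart.

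Grp, Npy, Gal and Cartpt encode peptides that modulate secretion and motility. Grp, the gastrin-releasing peptide carried by nerve fibres to the gastric glands, had the highest WT level of the 10 genes. It was at 5.98, 2.80 and 1.26 FPKM in R122C and 14.48, 10.03 and 10.91 FPKM in WT, with R122C 3 again lowest. Its means were 3.35 ± 2.41 FPKM in R122C and 11.8 ± 2.36 FPKM in WT (SD, n = 3), and the log2 difference was -1.69 ± 0.38 (SE). Without R122C 3 or any other single library it lay between -2.11 and -1.30.

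Cartpt, the precursor of the peptide CART (chromosome 13, 99898489 to 99901091, minus strand), had an R122C mean of 21.2% of the WT mean. Its level was 1.72, 0.93 and 1.37 FPKM in R122C and 5.41, 6.96 and 6.55 FPKM in WT, and the means were 1.34 ± 0.40 and 6.31 ± 0.80 FPKM (SD, n = 3; log2 difference -1.65 ± 0.22, SE). The gap between the groups was wider than the range within either, as it also was for Tac1, Snap25, Uchl1 and Elavl4. Npy, neuropeptide Y (chromosome 6, 49822710 to 49829507, plus strand), which sympathetic as well as enteric neurons make, was at 2.91, 1.48 and 1.93 FPKM in R122C and 4.60, 4.77 and 10.04 FPKM in WT. WT 3 stood well above the other WT libraries, and the log2 difference of -1.22 ± 0.31 (SE) was -0.90 without it. Gal, the galanin precursor (chromosome 19, 3409915 to 3414544, minus strand), was at 0.79, 0.47 and 0.85 FPKM in R122C and 2.65, 3.07 and 1.45 FPKM in WT, with a log2 difference of -0.97 ± 0.26 (SE). For Gal the groups came closest among the peptides, 0.85 FPKM in R122C 3 against 1.45 FPKM in WT 3.

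The genes of neurons in general were lower as well, and Snap25 had a small spread in WT. Snap25, a SNARE protein of transmitter release (chromosome 2, 136713453 to 136782428, plus strand), was at 1.34, 1.07 and 0.78 FPKM in R122C and 3.02, 3.15 and 3.43 FPKM in WT. Its means were 1.06 ± 0.28 FPKM in R122C and 3.20 ± 0.21 FPKM in WT (SD, n = 3), a log2 difference of -1.03 ± 0.21 (SE). Uchl1, a ubiquitin hydrolase whose protein is stained to show enteric nerves (chromosome 5, 66676091 to 66687234, plus strand), was the least reduced in proportion. It was at 4.63, 4.21 and 2.15 FPKM in R122C and 10.25, 7.48 and 9.84 FPKM in WT, so that the R122C mean was 39.9% of the WT mean (log2 difference -1.16 ± 0.26, SE). Uchl1 overlaps the antisense gene Uchl1os, and the same limit on strand holds. Elavl4, the neuronal RNA-binding protein HuD (chromosome 4, 110203722 to 110351909, minus strand), was at 0.23, 0.11 and 0.11 FPKM in R122C and 0.81, 0.54 and 0.78 FPKM in WT, a mean of 21.1% of WT, and was under the filter of 1 FPKM.

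Among themselves the genes kept much of their order. FPKM is scaled by length, so levels can be ranked. In R122C the order of means was Uchl1, Grp, Vip, Npy, Cartpt, Snap25, Gal, Tac1, Nos1 and Elavl4, and in WT it was Grp, Vip, Uchl1, Npy, Cartpt, Tac1, Snap25, Gal, Nos1 and Elavl4. In R122C each neighbouring pair in this order overlapped in its 3 values, and in WT each did except Tac1 with Snap25 and Gal with Nos1. Tac1 was the gene that changed place by the most, to rank 8 in R122C against rank 6 in WT, together with Uchl1, at rank 1 against rank 3. Within R122C the libraries were not alike. R122C 1 was the highest of the 3 for 8 genes, R122C 3 the lowest for 6 and R122C 2 the lowest for 4, with Elavl4 tied between R122C 2 and R122C 3. Taking the median over the genes of the log2 difference to the WT mean gave -0.86 in R122C 1, -1.34 in R122C 2 and -1.45 in R122C 3.

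Of the 10 genes 8 averaged 1 FPKM or more, and Nos1 and Elavl4 did not. All 10 genes had a log2 difference below 0 under each of the 16 alternatives, scalings included, and their groups did not overlap under any of the 3 scalings.

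Other neuron genes were described in 8 lists that leave out the 10 genes. The lists were also chosen with earlier results of these data known, so their counts are no independent support. Of 119 names 115 were in the table and 35 reached a mean of 1 FPKM. Of these 35, 4 fell (Prph, Gap43, Sncg and Hand2), 1 rose (Npy4r) and 30 did not pass, against 0.832% called lower and 5.27% called higher of all tested genes. The median log2 difference was -0.34, beside 0.10 over all tested genes, and 27 of the 35 were below 0, beside 4440 of 11414 tested genes. The count of lower genes was 5 without R122C 1, 3 without R122C 3, and 0 without R122C 2, WT 1, WT 2 or WT 3. Rescaling to a common total left 1, and a filter at 5 FPKM left 11 genes to test and 0 calls.

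**Figure D2:**
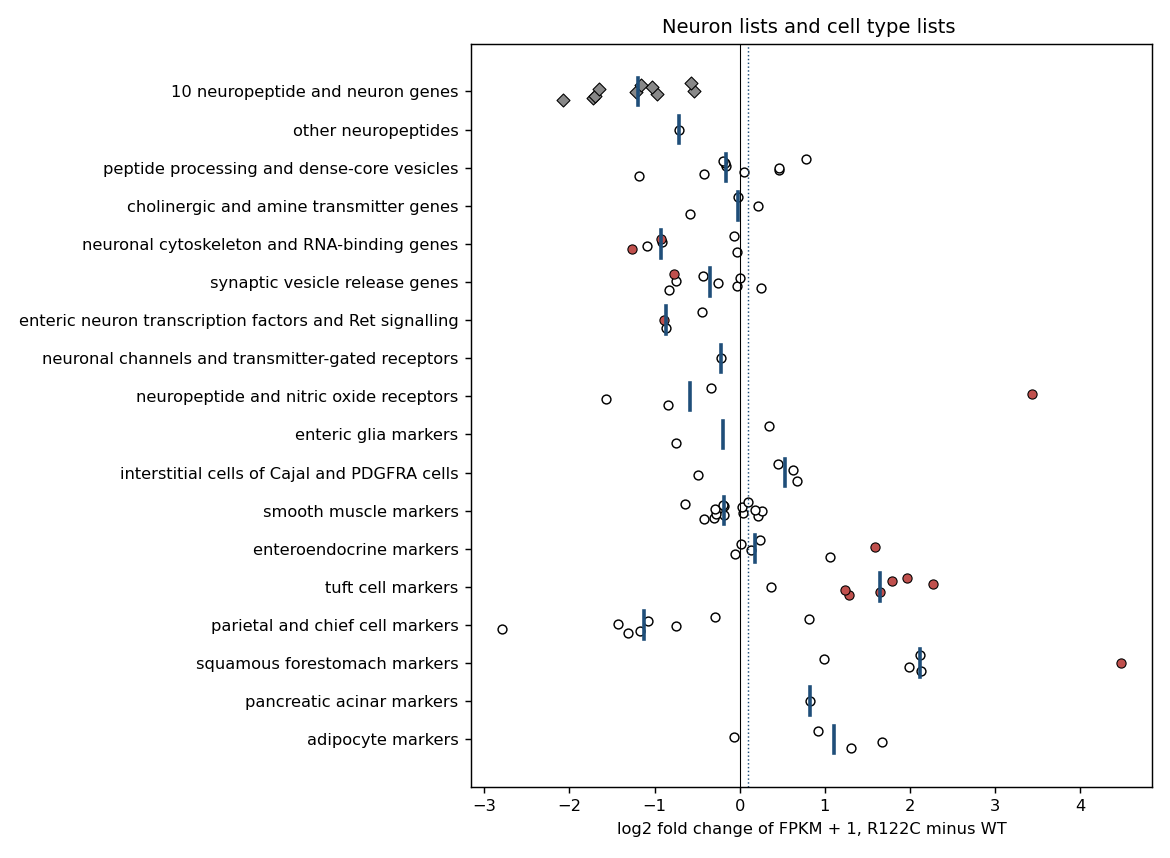
Log2 fold change of FPKM + 1 (R122C minus WT) for the 10 neuropeptide and neuron genes (grey diamonds, including Nos1 and Elavl4 from the fit of all rows) and for the genes of each list that average 1 FPKM or more (circles, filled where limma's adjusted p was under 0.05). Blue bars mark medians and the dotted line the median of all tested genes (0.10). The diamonds lie between -2.08 and -0.54, and the smooth muscle genes lie on both sides of 0.

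Among cytoskeleton and RNA-binding genes of neurons, 2 of 6 tested fell while 4 failed the test, and the median was -0.92. Prph, the intermediate filament peripherin of peripheral neurons, was at 1.83, 1.14 and 0.47 FPKM in R122C and 3.92, 3.55 and 4.54 FPKM in WT. It fell by 1.27 ± 0.27 (SE) on the log2 scale (limma adjusted p = 0.0312, and 0.0158 to 0.111 when each library was left out). Gap43, a growth cone protein, was at 0.64, 0.48 and 0.21 FPKM in R122C and 1.80, 1.62 and 1.73 FPKM in WT (limma adjusted p = 0.0494, and 0.0506 to 0.154 without single R122C libraries). Without WT 1, WT 2 or WT 3 its mean was under the filter and it was not tested. Tubb3, a neuronal tubulin named after its values were seen, did not follow, at 2.21, 16.0 and 3.10 FPKM in R122C and 4.70, 5.49 and 5.47 FPKM in WT, where the value of R122C 2 set the spread.

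Of 8 tested genes of synaptic vesicle release, 1 fell. Sncg, gamma-synuclein, had 4.98, 5.30 and 6.38 FPKM in R122C and 10.69, 8.93 and 10.94 FPKM in WT (log2 difference -0.77 ± 0.19, SE, limma adjusted p = 0.0469, and 0.0436 to 0.196 without single libraries). For this gene R122C 3 was the highest of its group. The broadly expressed vesicle protein gene Vamp2, named after its values were seen, had a log2 difference of 0.25 ± 0.20 (SE) and did not pass (limma adjusted p = 0.553).

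Of 14 transcription factor and Ret signalling genes, 6 lay wholly below WT (42.9%) and 1 above (7.14%), beside 5.64% and 16.8% of the whole table. Hand2, a transcription factor that enteric neurons need to mature, was at 3.03, 1.91 and 2.38 FPKM in R122C and 5.60, 5 and 5.39 FPKM in WT. It fell by 0.89 ± 0.20 (SE) on the log2 scale (limma adjusted p = 0.0381, and 0.0266 to 0.18 without single libraries). It was the 1 of 3 tested genes of its list that passed. The next were chosen after their values were seen. Ret, the receptor for GDNF on enteric progenitors and neurons, was at 0.85, 0.48 and 0.28 FPKM in R122C and 1.89, 1.72 and 1.68 FPKM in WT (limma adjusted p = 0.0682). Phox2a, a transcription factor of autonomic neurons, was at 0.08, 0.19 and 0.07 FPKM in R122C and 1.54, 0.81 and 1.18 FPKM in WT (limma adjusted p = 0.0273 in the fit of all rows, without the filter). For both genes the groups did not overlap.

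Of 4 tested receptors for the peptides and nitric oxide, 1 rose, 3 did not pass, and the median was -0.59. Npy4r, the receptor for pancreatic polypeptide, was at 8.96, 17.73 and 11.4 FPKM in R122C and 0.36, 0.19 and 0.14 FPKM in WT. It rose by 3.43 ± 0.26 (SE) on the log2 scale (limma adjusted p = 0.000445, and at most 0.00988 over the 16 alternatives). Adcyap1r1, the receptor for the peptide PACAP, named after its values were seen, was at 0.42, 2.10 and 2.13 FPKM in R122C and 9.42, 3.09 and 7.47 FPKM in WT, without overlap, and did not pass (limma adjusted p = 0.0693). The next were also named after their values were seen. Tacr1, the receptor for substance P, overlapped between the groups at 0.30 to 0.93 FPKM in R122C and 0.46 to 0.57 FPKM in WT, and Grpr, the receptor for Grp, was at 0 in all libraries but WT 2 (0.03 FPKM).

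In the lists of other neuropeptides, peptide processing, transmitter synthesis and channels, 0 genes passed limma, of 1, 9, 3 and 1 tested. At an unadjusted limma p under 0.05 there were 1, 1, 1 and 0 lower genes, and 1 higher gene, in peptide processing. Penk, the enkephalin precursor, was at 1.04, 2.41 and 2.56 FPKM in R122C and 4.74, 3.57 and 3.18 FPKM in WT (limma adjusted p = 0.186). Scg2, secretogranin of dense-core vesicles, was at 2.79, 1.85 and 0.98 FPKM in R122C and 7.86, 4.43 and 4.15 FPKM in WT (log2 difference -1.18 ± 0.31, SE, limma adjusted p = 0.0645, and 0.0412 to 0.184 without single libraries). Ache, acetylcholinesterase, had a log2 difference of -0.58 ± 0.24 (SE, limma adjusted p = 0.219), and the calcium channel gene Cacna1b one of -0.22 ± 0.21 (SE, limma adjusted p = 0.627). Medians of these 4 lists were -0.72, -0.16, -0.02 and -0.22.

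Many neuron genes averaged under 1 FPKM and were described by whether the groups overlap. In the fit of all 18708 rows, without the filter, 8 genes of the neuron lists were lower and 3 higher (limma adjusted p under 0.05), beside 0.353% lower and 2.28% higher of all rows. Of the 4 genes that fell in the filtered test, 1 was among these 8, Gap43. Prph, Sncg and Hand2 did not pass in this fit (limma adjusted p = 0.0781, 0.076 and 0.088). Over all 115 genes of the neuron lists in the table, 41 had every R122C value below every WT value (35.7%, with 5.64% over the whole table) and 11 had every R122C value above (9.57%, with 16.8% over the whole table). Under the 3 scalings the first count was 36 to 59 and the second 8 to 11. Whole-table shares under those scalings are not given, so these counts have no share to be read against. The share below was 60.0% in the list of channels and transmitter-gated receptors, 45.0% in vesicle release, 42.9% in transcription factors and Ret signalling, and 11.8% in the peptide and nitric oxide receptors. Examples chosen after their values were seen are Chrna3, a nicotinic receptor subunit of autonomic ganglia, at 0.64, 0.13 and 0.10 FPKM in R122C and 1.20, 0.92 and 1.42 FPKM in WT, and Htr3a, a serotonin-gated channel, at 0.43, 0.17 and 0.09 FPKM in R122C and 0.94, 1.19 and 1.25 FPKM in WT. Slc5a7, the choline transporter of cholinergic neurons, was at 0.13, 0.07 and 0.03 FPKM in R122C and 0.57, 0.46 and 0.52 FPKM in WT. In that fit Htr3a had a limma adjusted p of 0.0382 and Slc5a7 of 0.018. Chat, which makes acetylcholine, was at 0.08 to 0.10 FPKM in both groups.

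**Figure D3:**
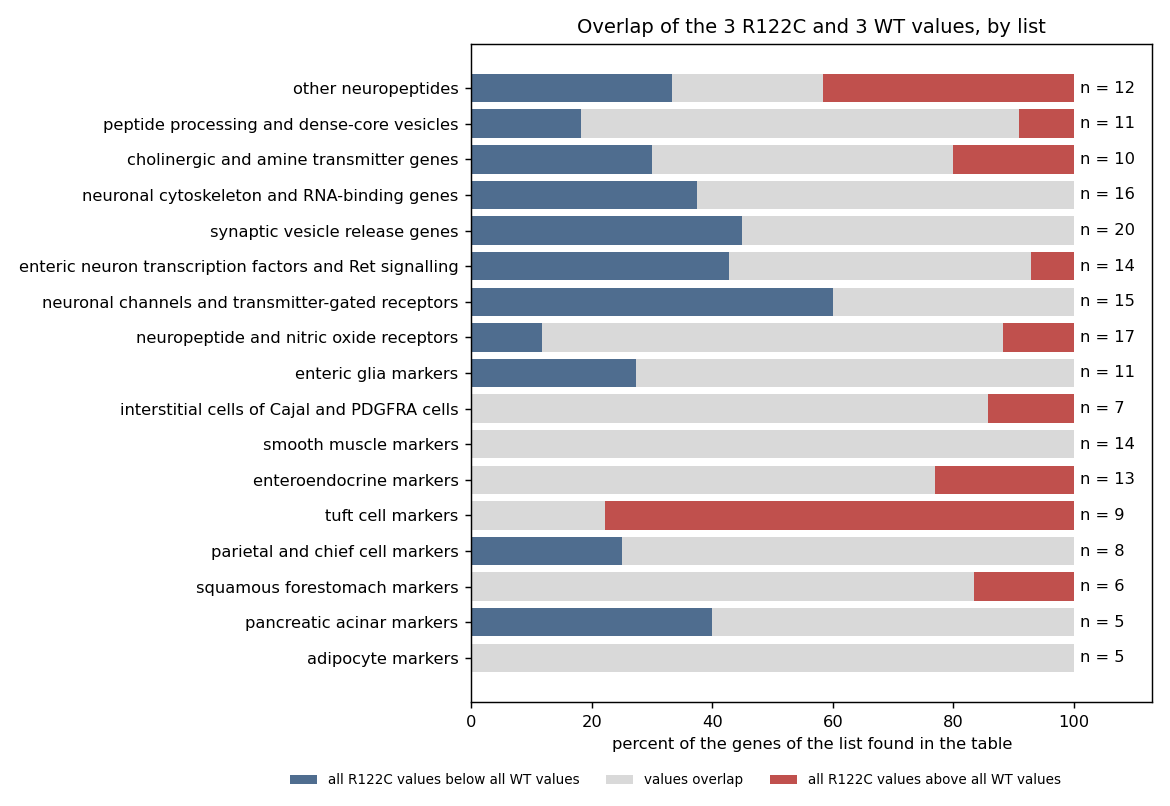
For each list, the percent of its genes found in the table (n at right) with all 3 R122C values below all 3 WT values (blue), overlapping (grey) or above (red). The neuron lists from cytoskeleton to channels are 37.5% to 60.0% blue, and the 14 smooth muscle genes are all grey.

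Not all peptide genes were lower. Among the other neuropeptides 4 of 12 lay wholly below WT (33.3%) and 5 wholly above (41.7%), beside 5.64% and 16.8% of the whole table. Calca, the precursor of calcitonin and of the sensory peptide CGRP, and Dbh, which makes noradrenaline, were named after their values were seen. Calca was at 0.45, 0.75 and 0.65 FPKM in R122C and 0.07, 0.02 and 0 FPKM in WT, and Dbh at 0.95, 0.95 and 1.18 FPKM in R122C and 0.11, 0.09 and 0.04 FPKM in WT. Neither reached the filter, and in the fit of all rows Calca had a limma adjusted p of 0.0192 and Dbh of 0.0101.

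Enteric neurons lie between layers of smooth muscle, and muscle genes were set beside them. Of 14 smooth muscle genes 0 passed limma in either direction, 0 at an unadjusted p under 0.05, and for each the values of the groups overlapped (under quantile normalization 2, and under median-of-ratios scaling 1, lay wholly below). Their sum was 725, 801.9 and 739 FPKM in R122C 1, 2 and 3 and 1122.1, 641.4 and 709.4 FPKM in WT 1, 2 and 3. The R122C sums lie within the WT range. Actg2, an enteric actin, was at 99.2, 203 and 139 FPKM in R122C and 259, 100.2 and 202 FPKM in WT, and Myh11, smooth muscle myosin, had a log2 difference of -0.42 ± 0.37 (SE, limma adjusted p = 0.591). Chrm2, a muscarinic receptor of muscle, had the lowest p of the list (limma adjusted p = 0.402).

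**Figure D4:**
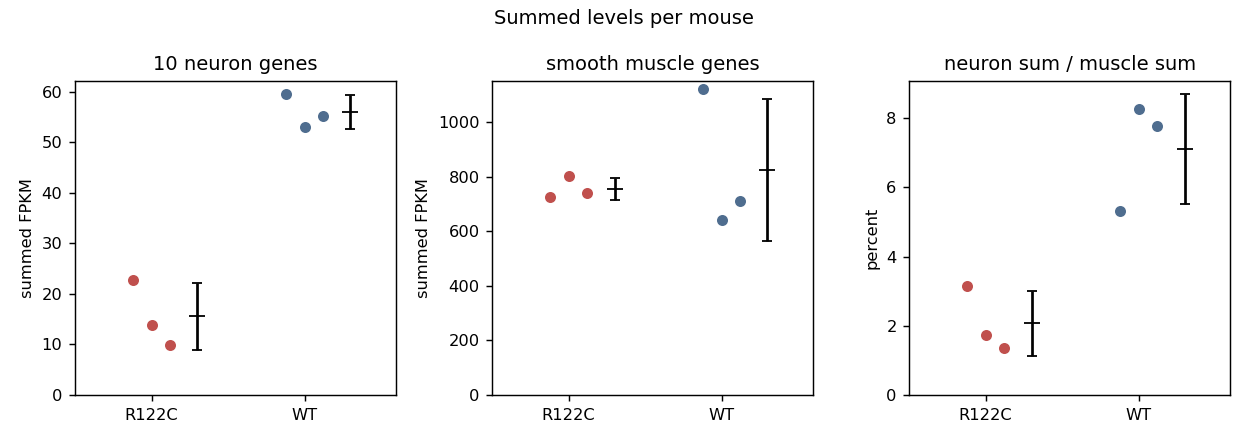
Summed FPKM of the 10 neuropeptide and neuron genes (left), of 14 smooth muscle genes (middle) and the first sum as a percent of the second (right), with 1 point per mouse, R122C left and WT right, and mean with SD (n = 3). The muscle sums overlap, and the ratio is 1.34% to 3.14% in R122C and 5.31% to 8.25% in WT.

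Expressed per muscle signal, the 10 genes summed to 3.14%, 1.73% and 1.34% of the smooth muscle sum in R122C 1, 2 and 3 and to 5.31%, 8.25% and 7.78% in WT 1, 2 and 3. The means were 2.07% ± 0.94 in R122C and 7.11% ± 1.58 in WT (SD, n = 3). This ratio does not depend on a library's scale. Its first sum is of genes picked for this contrast, so the gap between the groups is a description. Smooth muscle is also present in vessels and the thin muscle layer of the mucosa, so these genes do not measure the neuron-bearing layers alone.

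Glia and interstitial cells accompany enteric neurons. Of 11 glial genes 2 reached the filter, Erbb3 and Cryab, which epithelium and muscle also express, and neither passed limma (0 of 2, and 0 at an unadjusted p under 0.05). Of the 11, 3 lay wholly below WT (27.3%, beside 5.64% of the whole table) and 0 above. Those were S100b and, named after their values were seen, Sox10 and Foxd3, all under 1 FPKM. S100b was at 0.31, 0.29 and 0.27 FPKM in R122C and 0.53, 0.40 and 0.41 FPKM in WT. Among genes of interstitial cells of Cajal and of PDGFRA cells, 0 of 4 passed limma and 1 was higher at an unadjusted p under 0.05. That was the chloride channel gene Ano1, at 26.23, 18.24 and 21.78 FPKM in R122C and 14.17, 15.49 and 10.70 FPKM in WT (limma adjusted p = 0.111), which epithelium also expresses. Kit, which mast cells share with Cajal cells, had a log2 difference of -0.49 ± 0.32 (SE, limma adjusted p = 0.455).

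Endocrine cells make several of the same vesicle proteins, and of 13 enteroendocrine genes 0 lay wholly below WT and 3 wholly above (23.1%), beside 5.64% and 16.8% of the whole table. Of 6 tested enteroendocrine genes 1 rose, Gast, at 2.10, 3.55 and 2.99 FPKM in R122C and 0, 0.12 and 0.86 FPKM in WT (limma adjusted p = 0.0183, and up to 0.0902 without single libraries). Ghrl, the ghrelin gene, was at 1748, 1751 and 1867 FPKM in R122C and 1283, 597 and 813 FPKM in WT, with a log2 difference of 1.07 ± 0.30 (SE, limma adjusted p = 0.0813). Hdc, the histamine-producing enzyme, had a log2 difference of -0.06 ± 0.34 (SE, limma adjusted p = 0.951). The peptide of Grp is known to release gastrin, the hormone encoded by Gast, and in these libraries Grp was lower and Gast higher in R122C. A link between these differences was not tested.

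Tuft cell genes were higher in R122C, while no parietal or chief cell gene passed the test. Of 7 tuft cell genes 6 rose, with a median of 1.65. Dclk1, which neurons also express, was at 6.05, 3.84 and 5.91 FPKM in R122C and 1.52, 1.20 and 1.95 FPKM in WT (limma adjusted p = 0.0165, and 0.0877 without WT 2). Alox5ap rose by 2.27 ± 0.32 (SE), Rgs13 by 1.79 ± 0.25 and Trpm5 by 1.65 ± 0.30, each with limma adjusted p under the threshold (Trpm5 at 0.0764 without WT 2). Of 8 parietal and chief cell genes 0 passed, with 2 lower at an unadjusted limma p under 0.05 and a median of -1.13. Of these 8 genes 2 lay wholly below WT (25.0%), beside 5.64% of the whole table. Slc26a7 was at 3.59, 2.06 and 0.26 FPKM in R122C and 9.40, 6.16 and 3.68 FPKM in WT, and the pump subunits Atp4a and Atp4b had adjusted p of 0.306 and 0.322 (limma). Atp4a was at 2229, 1543 and 326 FPKM in R122C and 3617, 1962 and 2431 FPKM in WT. Atp4b was at 2594, 2326 and 529 FPKM in R122C and 4254, 2156 and 4000 FPKM in WT. All 3 genes were lowest in R122C 3.

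Squamous, pancreatic and fat genes mark neighbouring tissue. Of 5 squamous genes 1 rose, Krt13, at 9.17, 49.6 and 301 FPKM in R122C and 0.32, 3.77 and 1.21 FPKM in WT (limma adjusted p = 0.043, and up to 0.122 without single libraries). The list's summed level was 11.75, 53.1 and 496 FPKM in R122C and 0.43, 7.94 and 1.68 FPKM in WT. Of 4 adipocyte genes 0 passed and 3 were higher at an unadjusted p under 0.05 (limma), with Adipoq at 0.93, 3.62 and 4.56 FPKM in R122C and 0, 1.27 and 0.44 FPKM in WT. Among pancreatic acinar genes Cela1 alone was tested and did not pass (limma adjusted p = 0.244), while Cela2a was at 0.07 to 0.25 FPKM in R122C and 0.64 to 0.71 FPKM in WT. The part of these cell types and tissues in the levels of the neuron genes was not tested. Without R122C 3, the library richest in squamous genes, the median log2 difference of the 10 neuron genes was -1.11, against -1.19 with it. The squamous sums of R122C 1 and 2 were also above every WT sum, so leaving out R122C 3 is no test of that tissue's part.

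The genes whose pattern over the 6 libraries came nearest to the mean pattern of the 10 were Gm2115, Cd59a, Stim1, Cnksr3, Prph, Lnx2, Rtn1 and Creb3l2, measured by the root mean square distance of log2 values centred on each gene's mean. Distances ran from 0.109 for Gm2115 to 0.164 for Creb3l2, over 11414 genes compared. Rtn1, a reticulon typical of neurons and endocrine cells, was at 1.45, 1.06 and 0.92 FPKM in R122C and 2.94, 3.51 and 3.77 FPKM in WT. Cd59a, an inhibitor of complement lysis, was at 11.58, 8.79 and 6.07 FPKM in R122C and 22.89, 24.2 and 21.67 FPKM in WT. Stim1, the calcium sensor of the endoplasmic reticulum, was at 12.92, 8.12 and 6.68 FPKM in R122C and 20.0, 21.11 and 19.36 FPKM in WT. Of the 8, only Prph was on a neuron list, and a match over 6 libraries in 2 groups is a description of levels.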

How the data were processed

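The 10 genes and all lists were chosen with earlier results of these data known. RNA of the corpus of 3 R122C and 3 WT mice was extracted on silica columns with DNase treatment and sequenced by a company, per the labels' protocols. STAR, featureCounts and mm10 are named, without versions, in the submitters' processing notes. The authors deposited FPKM values with 2 decimals; the step between counts and FPKM is not described in the labels or notes.

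Values were tested as log2(FPKM + 1) in the 11422 genes averaging 1 FPKM or more with limma 3.58.1 in R 4.3.3, with a mean-variance trend, no covariate, two-sided, and Benjamini-Hochberg adjustment at 0.05. Nos1 and Elavl4, under the filter, took their difference from a fit of all 18708 rows. The method was tested on simulated data. With 3 mice a group, precision is limited by their number, and depth is unknown.

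Named genes were the 10, Runx3, up to 4 passing genes of each list or else its lowest p, the first 2 genes of each cell type list, and the 8 genes of nearest pattern; any other gene is marked where it appears, and a few that the rule takes are not reported here. Positions of genes come from GENCODE M21 (GRCm38, the assembly of mm10), promoters from RefSeq. Alternatives were other pseudocounts, filters and scalings, eBayes without trend, array weights, a replicate block and leaving out each library. Figures used matplotlib 3.10.9.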

Additional observations from a re-analysis of the deposited data

How the results depend on the processing

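The log2 difference of the 10 genes kept its direction under all 16 alternatives, and their median of -1.19 became -1.66 with a pseudocount of 0.1 FPKM and stayed between -1.36 and -1.11 without single libraries. Counts over all genes moved more. Higher genes numbered 392 at a mean of at least 5 FPKM, 1260 with a common total, 3812 with array weights and 1119 with the replicate block, and 246 to 581 without single libraries. Lower genes numbered 57 at a mean of at least 5 FPKM, 192 with median-of-ratios scaling, 248 with quantile normalization, 1697 with array weights and 259 with the replicate block, and 14 to 195 without single libraries. Array weights were estimated by an iteration that stopped before it converged. Of the neuron lists, 8 genes were lower with no filter, 0 at 5 FPKM, 9 with quantile normalization, 1 with a common total, 18 with array weights and 7 with the replicate block, and 0 to 5 without single libraries; 3 were higher with no filter and 5 with array weights. The sign turned for Actg2 with array weights (0.69) and for Hdc with a common total (0.12), array weights (0.13), without R122C 3 (0.10) and without WT 1 (0.31), with a range of -0.26 to 0.31 without single libraries. The causes were not tested, apart from fewer genes or libraries where a filter or a left-out library reduced them.

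Libraries share replicate numbers between the groups by title only. Deviations from the group means correlated at 0.467, 0.0174 and 0.365 for numbers 1, 2 and 3. R122C 1 and 3 correlated best with the WT library of their own number, and R122C 2 with WT 1 (0.0962). With 3 libraries a group these correlations cannot decide whether the numbers are pairs. As the titles alone link them, they were not taken as pairs, and the replicate block was run as an alternative. With no recorded depth, the counting error of levels under 1 FPKM is unknown.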
